A study of Helianthus annuus with 9 samples.

Results

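The loci described here are 333 long non-coding RNA (lncRNA) loci of developing sunflower seeds that were assembled with an intron, outside annotated genes. They are called spliced below in that sense only. Neither reads nor a genome sequence were at hand to check the introns. A locus was taken where all of its transcripts in the deposited assembly carry class code u, the Cufflinks code for a transcript outside known genes, where at least 1 transcript has 2 or more exons, and where the lncRNA expression table lists the same locus. Of the 65535 features in that table, 57962 are assembled loci (names starting with LXLOC), and 15425 of these are found in the assembly. The 333 loci are set beside the 13107 assembled intergenic loci whose transcripts all have 1 exon. The assembly holds 869 intergenic loci with a spliced transcript in all, of which 409 are in neither expression table and 127 are only in the mRNA table. Both expression tables and the assembly file end at a row limit and may be parts of longer files, so these numbers and all shares over the table refer to the rows deposited.

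The seeds came from untreated, field-grown plants of the high oleic acid sunflower (Helianthus annuus) line L-1-OL-1, taken on day 7, day 22 and day 37, and 3 libraries were made for each day. All groups thus share 1 line and 1 site, and the labels do not state from which event the days are counted. RNA was depleted of ribosomal RNA before sequencing. No label tells whether the libraries of a given day stem from different plants, so p-values reflect only the spread between these libraries, which may be technical.

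Long non-coding RNAs are transcripts that are not known to encode a protein. Those between genes are commonly less abundant, and made of fewer exons, than mRNAs, and an intron removed by splicing is bounded by short conserved sequences that show the strand of the transcript. In a sunflower seed the embryo grows, fills its cotyledons with oil and protein and then dries, and RNA populations are known to change strongly over these steps.

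Levels are in FPKM (fragments per kilobase, scaled to library size), which are already per length. The files hold no counts. From the steps between the lowest values of single-exon loci of 300 to 1000 bases, the depth implied was 46.0 to 47.4 fragments per FPKM of a 1000-base transcript on day 7, 20.3 to 29.5 on day 22 and 14.9 to 20.4 on day 37. Between 79.6% and 81.7% of these values lay within 0.2 of a whole step on day 7, but only 54.7% to 74.0% on the later days, so the later depths are rough. A transcript of 1000 bases needs 0.063 to 0.065 FPKM for 3 fragments on day 7, and 0.147 to 0.202 FPKM on day 37. The libraries numbered 3 stood apart on both later days, with 64.8% (day 22) and 82.4% (day 37) of single-exon intergenic loci at 1 FPKM or more, against 27.2% to 57.9% in the other 4 later libraries.

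Most of the loci have a simple structure. At most 2 exons were present in any transcript of 268 loci, 3 exons in 29, and the others had up to 15. More than 1 transcript was assembled for 98 loci, and 59 also have an unspliced transcript. Levels are given per locus, so spliced and unspliced transcripts of these 59 cannot be told apart. They lie on the plus strand in 180 cases and on the minus strand in 153. Sequence NC_035433.1 holds 72 of them, NC_035434.1 76, NC_035435.1 73, NC_035436.1 70 and NC_035437.1 39, and 3 lie on NC_023337.1, the sunflower mitochondrial genome. Loci on other sequences are not analysed here. Positions are those of the deposited assembly. The genome build was not given in the sources used here.

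The median exonic length was 1067 bases, against a median span of 838 bases for single-exon intergenic loci. The longest intron of a locus ranged from 20 to 110427 bases, with a median of 4369. Its length was unevenly spread. Among the loci with 2 exons, 101 had an intron of 5000 to 8000 bases, while 27 had one of 200 to 1000 bases and 22 one of 1000 to 3000 bases. In 13 loci the longest intron was shorter than 60 bases.

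3 structural groups are used below, which were chosen after the values were seen and therefore carry no test. The first holds the 174 loci with 2 exons and an intron of 3000 bases or more, called long-intron loci here. Their median intron was 6920 bases, with quartiles of 5738 and 7837 bases, and their median exonic length was 1184 bases. The second holds the 94 short-intron loci with 2 exons, with a median intron of 328 bases and 661 exonic bases. The third holds the 65 multi-intron loci with 3 or more exons, with a median longest intron of 930 bases and 2053 exonic bases, and 37 of them have more than 1 transcript.

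Some introns recurred at a locus in shifted form. Of the 12 long-intron loci with more than 1 intron, 8 held introns of equal length (within 2 bases) that overlapped but were displaced at both ends. LXLOC_030806 held 3 introns of 5677 bases displaced by 17 to 149 bases, and LXLOC_039174 held a pair of 6919 bases displaced by 448. The same was seen in 1 of 4 short-intron loci and in 3 of 65 multi-intron loci. The measure needs more than 1 intron, so most long-intron loci could not show it.

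Overlap between strands was common. Another assembled locus lay over 119 of the 333 loci on the opposite strand, namely 79 long-intron, 17 short-intron and 23 multi-intron loci. Of 12 overlapping pairs within the 333 loci, 11 were on opposite strands, and in 9 of these 11 both loci had an intron with identical start and end. LXLOC_014228 and LXLOC_019965, for instance, both have the intron NC_035434.1:87904341-87921646. Whether such introns are real splice junctions was not tested. The labels do not say whether the counting used strand, so the levels of such partners may share fragments and are uncertain. The median distance to the nearest assembled isoform of an annotated gene was 53951 bases (330 loci), with 75103 bases for long-intron, 34203 for short-intron and 44492 for multi-intron loci, and 11 loci lay within 1000 bases of one.

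**Figure D1:**
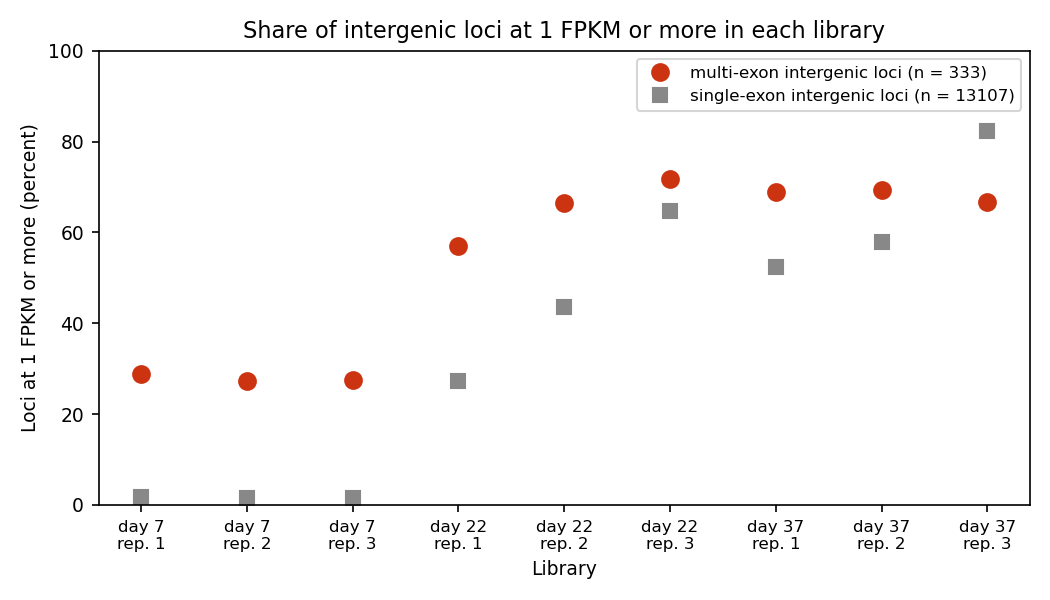
Share of intergenic loci listed at 1 FPKM or more (vertical axis, percent) in each of the 9 libraries (horizontal axis), for multi-exon loci (circles, n = 333) and single-exon loci (squares, n = 13107). On day 7 the multi-exon loci sit between 27.3% and 28.8% and the single-exon loci between 1.6% and 1.7%, and in replicate 3 of day 37 the order is turned round.

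In all 3 day 7 libraries a larger share of spliced than of unspliced intergenic loci was listed at 1 FPKM or more. Of the 333 spliced loci, the libraries listed 96, 91 and 92 on day 7, then 190, 221 and 239 on day 22, and finally 229, 231 and 222 on day 37. The day 7 libraries lay below all later ones, and the ranges of day 22 and day 37 overlapped. The mean number was 216.7 ± 24.8 on day 22 and 93.0 ± 2.65 on day 7 (SD, n = 3 each), a difference of 123.7 with p = 0.1 in an exact two-sided permutation test, the smallest p that 3 against 3 libraries allow. On day 37 it was 227.3 ± 4.73, which differed from day 7 by 134.3 (exact permutation p = 0.1) and from day 22 by 10.7 (exact permutation p = 0.7). The last difference is smaller than the spread on day 22, and it was 0.0 at a limit of 0.5 FPKM and negative under 5 other alternatives, among them leaving out replicate 1 of day 22 (-2.7). With quantile normalization the difference between day 37 and day 7 also turns, to -11.3. The rise after day 7 is not particular to the spliced loci. Single-exon loci at 1 FPKM or more went from 1.6% to 1.7% on day 7 to 27.2%, 43.5% and 64.8% on day 22. On day 37 they were at 52.4%, 57.9% and 82.4%.

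Next, the level of the loci was set against single-exon loci within each library, among loci with at least 1 FPKM in at least 3 libraries. The median log2(FPKM + 1) of multi-exon loci exceeded that of single-exon loci by 0.029, 0.029 and 0.043 in the day 7 libraries, by 0.425, 0.351 and 0.316 in those of day 22, and by 0.256, 0.212 and 0.137 in those of day 37. The 3 days did not overlap. The excess changed by 0.33 on day 22 against day 7, by -0.16 on day 37 against day 22 and by 0.17 on day 37 against day 7, each with an exact two-sided permutation p of 0.1, the smallest possible. The single-exon median was 0.0 in every day 7 library, and 177 of the 270 multi-exon loci included had no day 7 library at 1 FPKM. The choice of loci thus favours low day 7 levels, and both medians lay near the floor on that day. Nothing is read from the comparisons with day 7. Taking every locus above 0 in a library instead gave 0.385 on day 22 and 0.247 on day 37 against day 7. With the mean in place of the median the comparisons with day 7 reversed, to -0.50 for day 22 and -0.76 for day 37, and with quantile normalization to -0.20 and -0.36. At the edge of the selection rule, loci with at most 2 exons had library medians of 0.0 FPKM on day 7, 1.19 to 2.05 on day 22 and 1.69 to 2.35 on day 37, and single-exon loci 0.0, 0.62 to 1.22 and 1.03 to 1.59 FPKM.

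**Figure D2:**
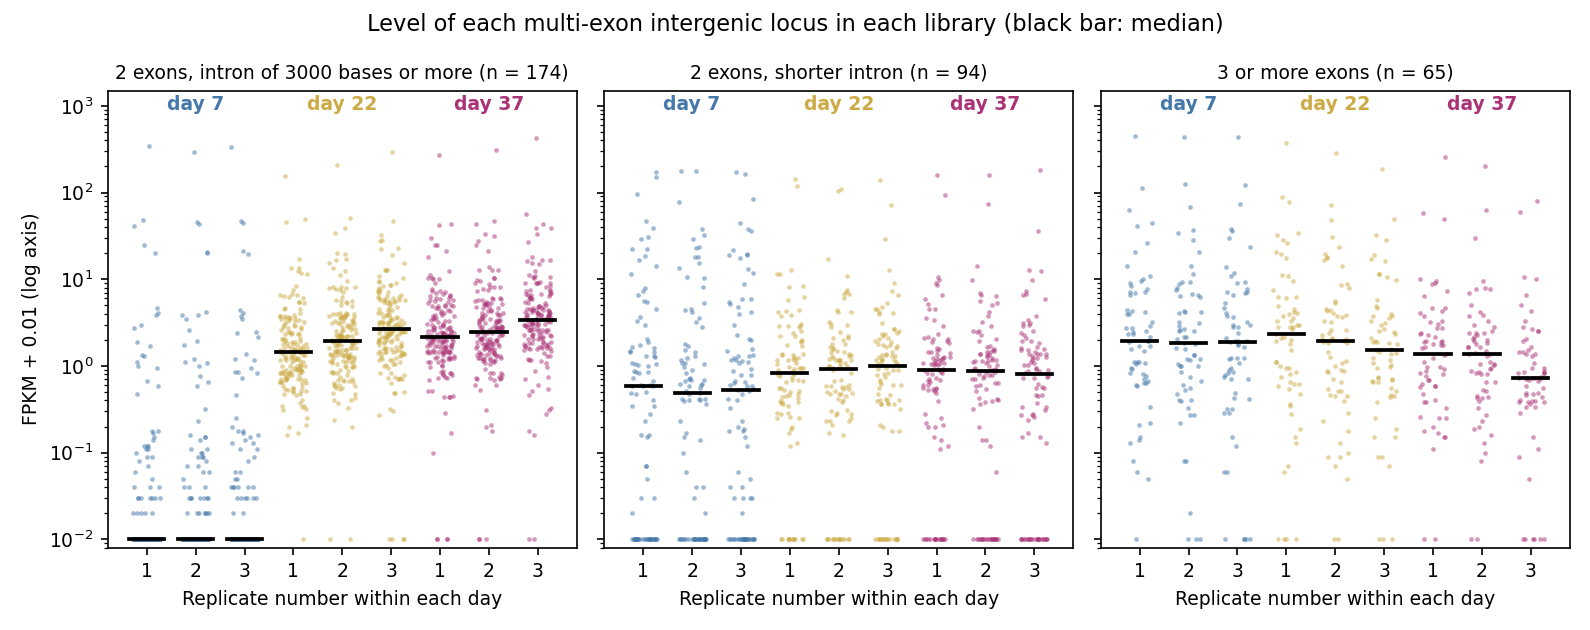
Level of each of the 333 loci in each library (vertical axis, FPKM + 0.01, log axis), by day and replicate number (horizontal axis), in 3 panels for the structural groups. Points are loci and black bars are medians, which for long-intron loci are at 0 FPKM on day 7 and reach 3.39 FPKM in replicate 3 of day 37, while for loci with 3 or more exons they lie between 1.81 and 1.95 FPKM on day 7 and at 0.72 FPKM in replicate 3 of day 37.

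The structural groups had different time courses. The median long-intron locus was listed at 0 FPKM in all 3 day 7 libraries, at 1.42, 1.93 and 2.63 FPKM on day 22 and at 2.12, 2.43 and 3.39 FPKM on day 37. The median multi-intron locus was listed at 1.95, 1.81 and 1.90 FPKM on day 7, at 2.33, 1.94 and 1.53 FPKM on day 22 and at 1.38, 1.35 and 0.72 FPKM on day 37. The long-intron medians on day 7 lay below every later library, and the multi-intron medians on day 37 below every earlier one. The median short-intron locus was listed at 0.58, 0.475 and 0.525 FPKM on day 7, 0.83, 0.92 and 0.99 on day 22 and 0.895, 0.865 and 0.79 on day 37. On day 22 these medians lay below those of both other groups in every library.

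Counts of loci show the same division. In all 3 day 7 libraries, 105 of 174 long-intron loci were listed at 0, and 52 of these reached 1 FPKM in all 6 later libraries. Only 1 of 65 multi-intron loci and 21 of 94 short-intron loci were at 0 throughout day 7. Conversely, the day 7 mean exceeded every later library in 30 multi-intron, 33 short-intron and 8 long-intron loci. Replicate numbers differed between the groups as well: in 144 of 174 long-intron loci replicate 3 exceeded replicate 1 on day 22 and on day 37 alike, against 11 of 65 multi-intron loci, and in 38 multi-intron loci it was below replicate 1 on both days. These counts were not made for other lncRNA features. Single-exon intergenic loci also had a median of 0.0 FPKM in every day 7 library. On both later days replicate 3 listed the largest share of them at 1 FPKM or more (64.8% and 82.4%). The pattern of the long-intron loci is thus not shown to be particular to them. The part of depth and of the libraries numbered 3 in these differences was not tested.

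Day 22 was then compared with day 7. Tests used limma on log2(FPKM + 1), a scale that understates changes of low loci, and calls needed a log2 fold change of 1 or more in size and a p under 0.05 after Benjamini-Hochberg adjustment over all features tested. At least 1 FPKM in at least 3 libraries was reached by 270 of the 333 loci, 177 of them with no day 7 library at that level, so passing already favours a higher later level. Of the 270, 156 were higher on day 22 (57.8%) and 29 lower (10.7%), against 60.9% higher and 1.69% lower among all 34147 lncRNA features tested. The share of higher loci is thus near the background. Their median log2 fold change was 1.20, and that of all features 1.11. In other classes, lower calls covered 8.3% of spliced assembled loci with another class code, 11.4% of annotated lncRNA and 0.6% of single-exon intergenic loci.

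Without the filter all 333 loci enter the fit. Then 158 were higher (47.4%) and 29 lower (8.7%), with a background of 32.1% higher and 0.905% lower. Long-intron loci gave 129 of the higher and 3 of the lower calls, out of 174. Short-intron loci gave 22 and 16 out of 94, and multi-intron loci 7 and 10 out of 65.

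The split between higher and lower depends on scaling. When the filtered values were scaled by the median of ratios, 80 loci were higher and 86 lower (background 22.7% and 9.09%), with trimmed mean scaling 86 and 86 (24.7% and 9.08%), with quantile normalization 49 and 78 (13.5% and 8.64%), and when 386 abundant mRNA genes set the scale 164 and 16 (72.9% and 0.612%). These scalings set the median change of all features at 0.64, 0.68, 0.25 and 1.36. Higher calls outnumbered lower ones among long-intron loci under each of the 4, with 70, 76, 42 and 130 higher against 13, 12, 9 and 2 lower. All 4 used the loci that passed the filter on unscaled values. No day 7 library was at 1 FPKM in 138 of the 154 long-intron loci tested, against 5 of 48 multi-intron loci. The filter thus favoured higher calls among long-intron loci, and nothing further is read from their direction. Among multi-intron loci 41, 41 and 39 were lower with the scalings on the lncRNA table, against 3 with the scaling on mRNA genes, under which 7 were higher. Leaving out both later libraries numbered 3 gave 143 higher and 25 lower loci (background 49.4% and 1.41%).

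**Figure D3:**
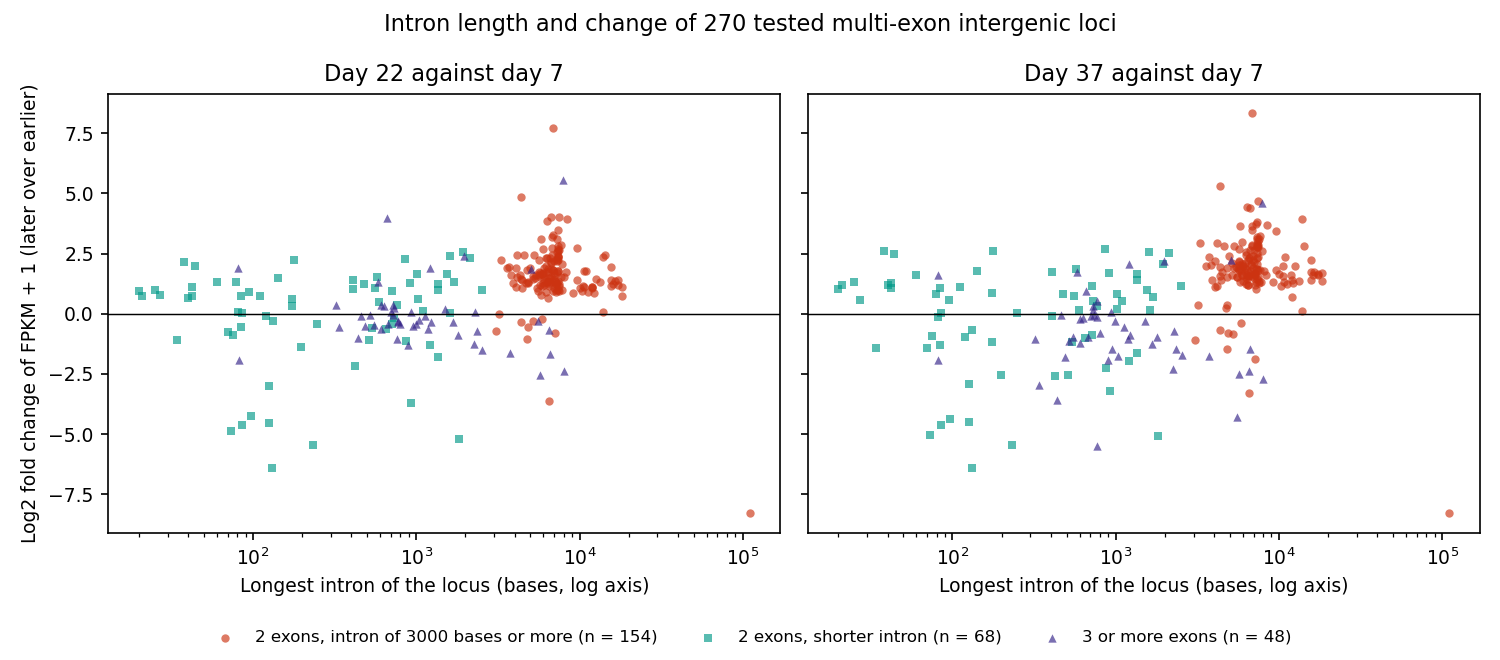
Log2 fold change of FPKM + 1 (vertical axis) of the 270 tested loci against the length of the longest intron (horizontal axis, bases, log axis), for day 22 against day 7 (left) and day 37 against day 7 (right), with structural groups by colour and shape. Most long-intron loci lie above 0, while the locus with the longest intron, of 110427 bases, lies lowest.

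LXLOC_029241 was the most abundant of the loci on day 37. This long-intron locus lies at NC_035435.1:1310828-1322059 on the minus strand, with an intron of 6876 bases. It was listed at 0, 0.05 and 0.05 FPKM on day 7, at 155, 210 and 296 FPKM on day 22 and at 269, 312 and 422 FPKM on day 37. Every later library lay far above day 7, and day 37 overlapped day 22. The log2 fold change was 7.69 ± 0.35 (SE) on day 22 against day 7, with a limma adjusted p of 2.64e-19, and 8.32 ± 0.35 on day 37 against day 7 (limma adjusted p 2.36e-20).

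LXLOC_054820, at NC_035437.1:202396016-202402385 on the plus strand with an intron of 4370 bases, was listed at 0 in all day 7 libraries. It was at 17.0, 39.3 and 32.7 FPKM on day 22 and at 29.7, 43.6 and 43.3 FPKM on day 37, with limma adjusted p-values of 1.81e-15 and 1.16e-16 against day 7. No fold is given against a day at 0. It has 2 transcripts, and 1 of them is a single exon of 6370 bases that covers the whole locus, intron included. How much of the level comes from spliced RNA was not tested. The mRNA table lists this locus too, at 1.57, 1.56 and 1.76 FPKM on day 7 and between 5.13 and 7.95 FPKM in the later libraries. In both tables all later libraries were above day 7, but in the mRNA table the locus was not at 0 on day 7.

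Among other long-intron loci, LXLOC_038931 was listed at 0.06, 0.10 and 0.10 FPKM on day 7 and at 11.5, 17.2 and 23.1 FPKM on day 22 (log2 fold change 4.02 ± 0.29, limma adjusted p 3.60e-14). LXLOC_017678 was at 0.07, 0.08 and 0.10 FPKM on day 7 and at 12.3, 16.7 and 22.1 FPKM on day 22 (4.02 ± 0.28, limma adjusted p 2.01e-14). LXLOC_031296 was at 0.47, 0.31 and 0.45 FPKM on day 7 and at 13.3, 19.4 and 27.5 FPKM on day 22 (3.85 ± 0.30, limma adjusted p 2.63e-13). In these 3 loci day 22 did not overlap day 7, their introns are 6354 to 7457 bases long, and replicate 3 was the highest library of both later days.

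LXLOC_014009 is a multi-intron locus that was higher on day 22. It lies at NC_035434.1:77915251-77925387 on the plus strand, with 3 exons and a longest intron of 7885 bases. Day 7 libraries held 0.13, 0.01 and 0.05 FPKM, day 22 libraries 87.8, 48.1 and 28.6 FPKM and day 37 libraries 49.2, 29.9 and 9.98 FPKM. Both later days were above day 7 in every library, with the lowest later values in replicate 3. The log2 fold change was 5.57 ± 0.47 on day 22 against day 7 (limma adjusted p 2.13e-08) and 4.60 ± 0.47 on day 37 against day 7 (limma adjusted p 1.06e-07).

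Loci lower on day 22 included the most abundant long-intron locus of day 7. LXLOC_026551, at NC_035435.1:104524964-104635760 on the plus strand, has the longest intron of the 333 loci. It was listed at 346, 297 and 333 FPKM on day 7, at 0.20, 0 and 0 FPKM on day 22 and at 0, 0 and 0.17 FPKM on day 37. All later libraries were near 0, and the log2 fold change on day 22 against day 7 was -8.26 ± 0.27 (limma adjusted p 4.98e-23). Its 2 transcripts cover 3156 exonic bases together. The spliced transcript has 370 exonic bases, and the other is a single exon of 2886 bases at NC_035435.1:104632875-104635760. Which of them gives the day 7 level was not tested. On the same strand 5 other assembled loci overlap the span of LXLOC_026551. The mRNA table also lists this locus, but at 0 in all day 7 libraries, at 0.69, 0.82 and 1.06 FPKM on day 22 and at 0.78, 0.97 and 1.60 FPKM on day 37. At this locus the values of the 2 tables thus ran in opposite directions, and the files do not say which transcripts each table counts.

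Short-intron loci gave the other large declines. LXLOC_014595 (NC_035434.1:104999589-105000157, plus strand, intron of 131 bases) was at 94.9, 78.2 and 83.3 FPKM on day 7 and was listed at 0 in all 6 later libraries (limma adjusted p 1.04e-21 on day 22). LXLOC_016521, with an intron of 232 bases, was at 46.4, 38.1 and 44.6 FPKM on day 7 and was likewise listed at 0 later (limma adjusted p 2.53e-20). LXLOC_021286 was at 38.7, 32.7 and 35.7 FPKM on day 7 and at 0 in all later libraries but replicate 3 of day 37, with 0.27 FPKM (limma adjusted p 1.05e-19). LXLOC_029800, with an intron of 73 bases, was at 30.4, 28.9 and 37.9 FPKM on day 7 and at 0.16, 0.22 and 0 FPKM on day 22 (log2 fold change -4.88 ± 0.23, limma adjusted p 6.09e-19). These 4 loci separated day 7 from every later library, and each has 1 transcript.

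LXLOC_003909, a multi-intron locus with 5 exons and 6 transcripts, was at 6.99, 7.98 and 7.18 FPKM on day 7 and at 0.61, 0.51 and 0.66 FPKM on day 22 (log2 fold change -2.39 ± 0.21, limma adjusted p 5.10e-12). In the mRNA table the same locus was at 0.62, 0.51 and 0.48 FPKM on day 7 and at 1.88, 2.29 and 2.80 FPKM on day 22. Here too the tables ran in opposite directions. The lncRNA and mRNA tables share 10 of the 333 loci.

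**Figure D4:**
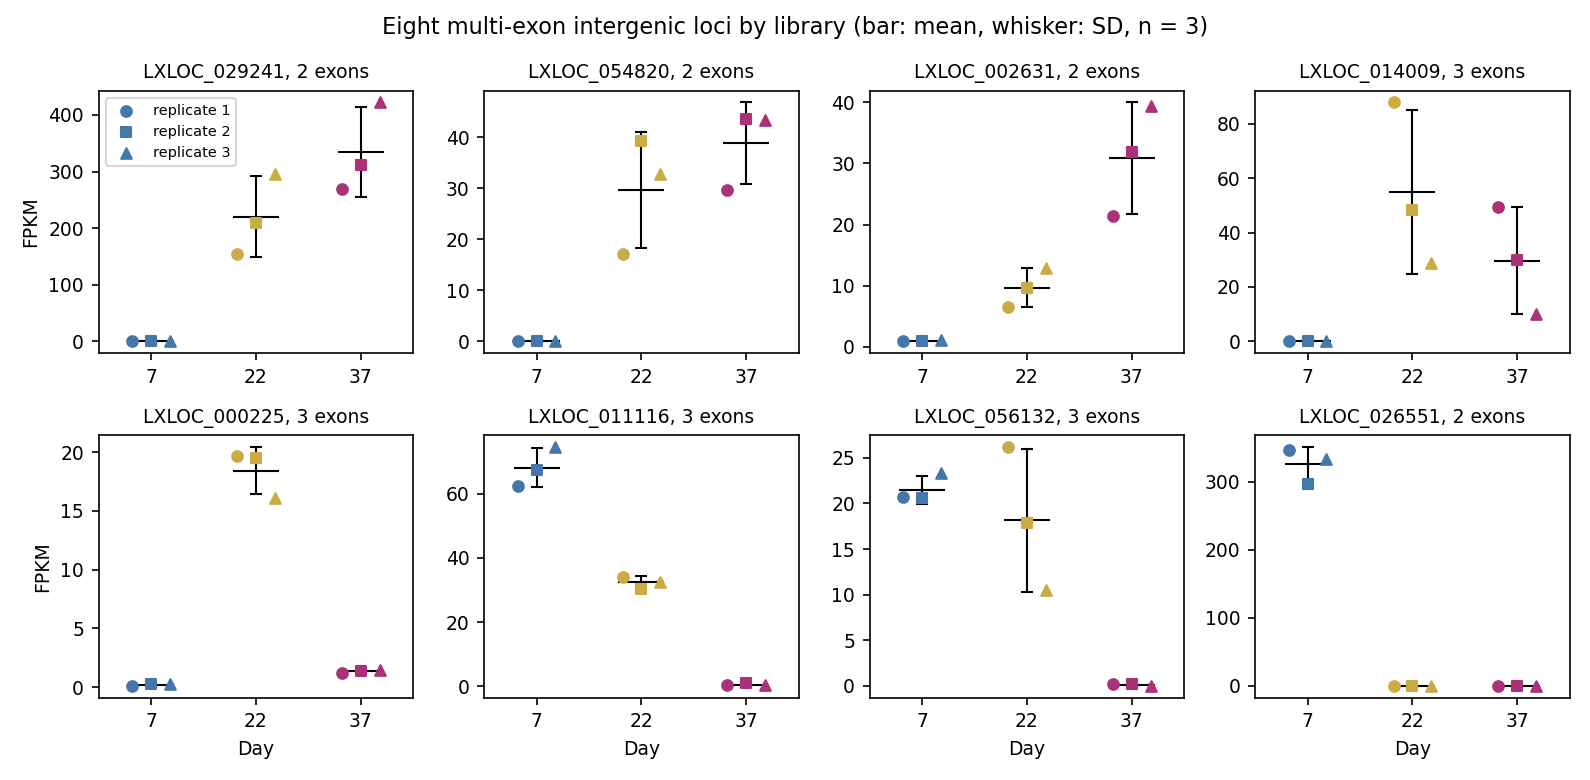
FPKM (vertical axis, linear) of 8 loci by day (horizontal axis), with symbols for replicates 1 to 3, bars at the mean and whiskers of 1 SD (n = 3). LXLOC_029241, LXLOC_054820 and LXLOC_014009 are at or near 0 on day 7, LXLOC_000225 peaks at 16.1 to 19.7 FPKM on day 22, LXLOC_011116 and LXLOC_056132 are near 0 on day 37, and LXLOC_026551 is near 0 on both later days.

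The comparison of day 37 with day 22 gave few calls. Of the 270 loci tested, 1 was higher (background 0.515%) and 17 were lower, or 6.3% (background 1.87%). The loci with 3 or more exons gave 10 of the lower calls, short-intron loci 5 and long-intron loci 2. In other classes, lower calls covered 13.3% of spliced assembled loci with another class code, 15.6% of annotated lncRNA and 0.6% of single-exon intergenic loci. The unfiltered fit of all 333 loci also gave 1 and 17, with a background of 0.253% and 0.876%. With the scaling on abundant mRNA genes 3 loci were lower (background 0.223%) and none higher (background 0.0146%). Its factors, by which the values of a library were divided, were 1.53, 1.17 and 0.329 for day 37, and the cause of the lost calls was not tested. Median-of-ratios and trimmed mean scaling each gave 1 higher and 13 lower loci (background 0.17% and 1.19%, and 0.211% and 1.24%), and quantile normalization 1 and 12 (0.167% and 1.16%). Without both later libraries numbered 3, there were 1 higher and 16 lower loci (background 0.881% and 1.87%).

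LXLOC_002631 was the locus higher on day 37. This long-intron locus lies at NC_035433.1:81890846-81912983 on the plus strand with an intron of 13901 bases. It has 2 transcripts, a single exon of 7186 bases and a spliced one of 1907 exonic bases. How much of the level comes from the spliced transcript was not tested. It was listed at 0.94, 0.98 and 1.18 FPKM on day 7, at 6.52, 9.64 and 12.9 FPKM on day 22 and at 21.3, 31.8 and 39.5 FPKM on day 37. The 3 days did not overlap. The log2 fold change was 1.58 ± 0.30 on day 37 against day 22 (limma adjusted p 5.03e-04) and 2.35 ± 0.30 on day 22 against day 7 (limma adjusted p 1.35e-08). The later step was not called with the scaling on mRNA genes (1.51, limma adjusted p 0.948). The earlier step was not called with median-of-ratios scaling (0.39), trimmed mean scaling (0.42) or quantile normalization (0.76).

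LXLOC_008622 lies over the same intron, NC_035433.1:81897778-81911678, on the opposite strand. It was steady, at 41.4, 46.2 and 47.0 FPKM on day 7, 45.6, 50.9 and 46.6 FPKM on day 22 and 43.7, 47.1 and 56.1 FPKM on day 37. In the mRNA table LXLOC_002631 was itself at 24.6, 24.9 and 24.8 FPKM on day 7, at 24.4, 18.3 and 11.5 FPKM on day 22 and at 22.2, 18.5 and 11.6 FPKM on day 37, without the climb seen in the lncRNA table.

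The multi-intron locus with the largest decline on day 37 against day 22 was LXLOC_011116, at NC_035433.1:139699826-139701810 on the minus strand with 3 exons. It was at 62.4, 67.5 and 74.5 FPKM on day 7, at 34.2, 30.3 and 32.5 FPKM on day 22 and at 0.37, 1.01 and 0.28 FPKM on day 37. The 3 days did not overlap, and the log2 fold change was -4.45 ± 0.30 on day 37 against day 22 (limma adjusted p 3.18e-13). The earlier change of -1.05 ± 0.30 (limma adjusted p 0.00155) was not called without replicate 3 of day 7 (-0.98) or with the scaling on mRNA genes (-0.06).

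LXLOC_056132, at NC_035437.1:15371404-15377693 on the minus strand with 3 exons, was at 20.7, 20.6 and 23.3 FPKM on day 7, at 26.2, 17.8 and 10.5 FPKM on day 22 and at 0.16, 0.26 and 0 FPKM on day 37. Days 7 and 22 overlapped, and day 37 lay below both, with a log2 fold change of -3.99 ± 0.30 against day 22 (limma adjusted p 3.16e-12). LXLOC_000225, at NC_035433.1:4942846-4944375 on the plus strand with 3 exons, was instead high on day 22. It was at 0.12, 0.26 and 0.28 FPKM on day 7, at 19.7, 19.5 and 16.1 FPKM on day 22 and at 1.23, 1.39 and 1.44 FPKM on day 37. Its log2 fold change was 3.99 ± 0.24 on day 22 against day 7 (limma adjusted p 2.55e-16) and -3.04 ± 0.24 on day 37 against day 22 (limma adjusted p 8.82e-12).

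LXLOC_001740 has up to 10 exons. It was at 26.1, 28.3 and 29.6 FPKM on day 7, at 20.8, 17.6 and 17.2 FPKM on day 22 and at 3.72, 3.33 and 1.52 FPKM on day 37 (day 37 against day 22 -2.39 ± 0.30, limma adjusted p 7.24e-07). LXLOC_052660, with 6 exons, was at 41.0, 34.5 and 35.8 FPKM on day 7, at 28.6, 16.8 and 11.4 FPKM on day 22 and at 4.59, 2.39 and 0.72 FPKM on day 37 (day 37 against day 22 -2.55 ± 0.36, limma adjusted p 1.29e-05). In both, the 3 days did not overlap. With the scaling on mRNA genes the later step was not called in either, although the log2 fold changes of -2.55 for LXLOC_001740 (limma adjusted p 0.241) and -2.80 for LXLOC_052660 (limma adjusted p 0.121) were no smaller in size. The earlier step of LXLOC_052660 (-1.02 ± 0.36, limma adjusted p 0.00906) was lost without replicate 1 of day 7 (-0.95), replicate 2 of day 22 (-0.99) or replicate 3 of day 22 (-0.73), and with the scaling on mRNA genes it was -0.06 (limma adjusted p 0.938).

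Over the whole course, day 37 against day 7, 170 of the 270 loci tested were higher (63.0%) and 48 lower (17.8%), against 84.4% higher and 3.88% lower among all features. In the fit of all 333 loci 174 were higher (52.3%, background 51.4%) and 49 lower (14.7%, background 2.05%). By structure, 144 long-intron loci were higher and 5 lower, 24 short-intron loci higher and 21 lower, and 6 multi-intron loci higher and 23 lower. Among the loci tested the median log2 fold change was 1.83 for long-intron, 0.52 for short-intron and -0.98 for multi-intron loci, beside 1.37 for all features. With the scaling on mRNA genes the multi-intron median was -0.29, with 6 higher and 9 lower.

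The scalings on the lncRNA table again moved the split for day 37 against day 7. Among the 270 loci 99 were higher and 90 lower with median-of-ratios scaling (background 29.8% and 9.36%), 114 and 90 with trimmed mean scaling (34.1% and 9.32%), and 56 and 89 with quantile normalization (15.5% and 9.84%). Scaled on mRNA genes, 172 were higher and 25 lower (89.7% and 1.65%). Higher calls outnumbered lower ones among long-intron loci under all 4, and lower calls outnumbered higher ones among multi-intron loci under all 4. The same filter was used in each, which favours higher calls among long-intron loci. Without both later libraries numbered 3, there were 168 higher and 43 lower loci (background 76.7% and 3.32%). This comparison shares its day 7 and day 37 libraries with the other 2 comparisons.

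**Figure D5:**
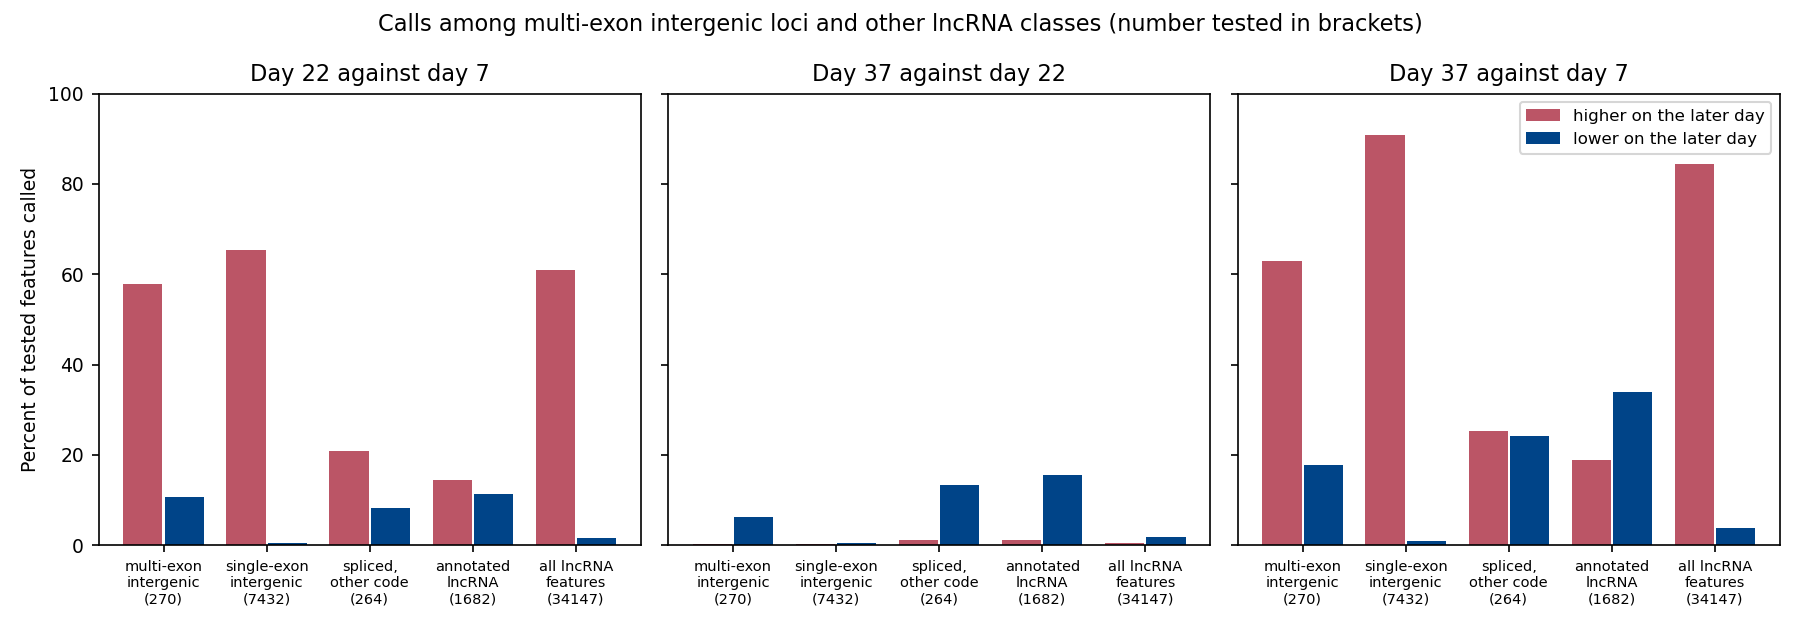
Percent of tested features called higher or lower on the later day (vertical axis) for multi-exon intergenic loci and 4 other sets of lncRNA features (horizontal axis, number tested in brackets), in 3 panels for the comparisons. Lower calls on day 37 against day 7 cover 17.8% of multi-exon intergenic loci and 3.88% of all lncRNA features.

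Other classes of the lncRNA table are given for comparison, and differences between classes were not tested. Of 7432 single-exon intergenic loci tested, 6746 were higher and 76 lower on day 37 against day 7. Of 264 spliced assembled loci with another class code 67 were higher and 64 lower, and of 1682 annotated lncRNA 319 were higher and 572 lower. A larger share of lower calls than among all features is thus not particular to the multi-exon intergenic loci.

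Of the 3 loci with the most exons, LXLOC_021813 and LXLOC_016829 were not called on day 22 against day 7, and LXLOC_041642 was not tested. LXLOC_021813, with 15 exons, was at 14.4, 14.1 and 13.9 FPKM on day 7, at 17.6, 14.0 and 9.69 FPKM on day 22 and at 8.97, 7.67 and 2.69 FPKM on day 37. Its change on day 37 against day 7 (-1.14 ± 0.33, limma adjusted p 0.00149) was not called without replicate 3 of day 37 (-0.70) or with the scaling on mRNA genes (-0.35, limma adjusted p 0.634). LXLOC_016829, with 13 exons, was at 10.9, 11.4 and 11.7 FPKM on day 7, at 11.2, 8.83 and 4.86 FPKM on day 22 and at 9.62, 6.97 and 1.93 FPKM on day 37, and was not called. In both, replicate 3 was the lowest library of each later day. LXLOC_042312, with 11 exons and named for its 6 transcripts, was at 10.1, 8.76 and 11.0 FPKM on day 7. It was at 4.26, 3.81 and 1.42 FPKM on day 37 (-1.47 ± 0.30, limma adjusted p 2.24e-05), a call not made with the scaling on mRNA genes (-0.73). LXLOC_041642, with 14 exons, stayed at or below 0.57 FPKM in every library and was not tested.

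The 3 mitochondrial loci were among the most abundant of day 7. Exons covered all 56695 bases of the span of LXLOC_000020 and all 12023 of LXLOC_000021. In LXLOC_000015 they covered 38848 of 38918 bases. Each intron of LXLOC_000020 and LXLOC_000021 thus lies within exons of other transcripts of the locus. How much of these levels comes from spliced RNA was not tested. LXLOC_000020 spans NC_023337.1:15-56709 and was at 447, 439 and 440 FPKM on day 7, at 375, 289 and 185 FPKM on day 22 and at 255, 201 and 79.4 FPKM on day 37. LXLOC_000015, which lies over it on the opposite strand, was at 173, 176 and 170 FPKM on day 7, at 145, 104 and 71.4 FPKM on day 22 and at 93.9, 73.9 and 35.8 FPKM on day 37. Day 7 lay above all later libraries in both, and replicate 3 was lowest on each later day. On day 37 against day 7 the log2 fold change was -1.46 ± 0.48 for LXLOC_000020 (limma adjusted p 0.00467) and -1.44 ± 0.42 for LXLOC_000015 (limma adjusted p 0.00150). The call of LXLOC_000020 was lost without replicate 3 of day 37 (-0.96), and neither was called with the scaling on mRNA genes (-0.56 and -0.55). LXLOC_000021 was at 112, 126 and 121 FPKM on day 7 and at 58.5, 62.1 and 59.4 FPKM on day 37, a log2 change of -0.98 ± 0.37 that was not called. In the mRNA table this locus was at 320, 331 and 296 FPKM on day 7 and at 115, 72.2 and 14.7 FPKM on day 37, with replicate 3 the lowest.

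An abundant locus with no call in any comparison was LXLOC_011218. This short-intron locus at NC_035433.1:142703278-142707315 on the minus strand was at 150, 178 and 162 FPKM on day 7, at 117, 111 and 138 FPKM on day 22 and at 158, 160 and 180 FPKM on day 37. Day 22 lay below both other days, but no change was called (-0.42 ± 0.40 on day 22 against day 7, limma adjusted p 0.313, and 0.44 ± 0.40 on day 37 against day 22, limma adjusted p 0.417). Across all 333 loci, 9 long-intron, 7 short-intron and 14 multi-intron loci were listed at 1 FPKM or more in all 9 libraries. Another 63 loci were not tested, of which 25 never reached 1 FPKM, and the highest value among the 63 was 3.05 FPKM. They include LXLOC_025917, with an intron of 73329 bases, which had 0 FPKM throughout day 7 and 0.99, 0.81 and 2.04 FPKM on day 37.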

How the data were processed

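Gene levels were deposited by the authors as FPKM, per the file headers, and the scaling total is not stated. The circular RNA signal was scaled by the authors, and the file headers give no unit for it. The submitters' processing notes name DESeq2 1.4.5, RSEM 1.2.12, HISAT2 2.0.4 and Bowtie2 2.2.5 without roles. The exon positions come from the deposited assembly.

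Here log2(FPKM + 1) was fitted for features that reached 1 FPKM in 3 or more of the 9 libraries, in 1 model of the 3 days with limma 3.58.1 (trended, robust) in R 4.3.3, with adjusted p-values over all 34147 lncRNA features tested. The limma fit was tested on simulated data. Exact permutation tests (two-sided, scipy 1.17.1) served for numbers per library, and their smallest p is 0.1. Other steps used Python 3.11.15, numpy 2.4.6, pandas 2.3.3 and matplotlib 3.10.9. The members, lists, tests and alternatives were chosen with earlier results of these data known. Named loci are, per comparison, the 5 higher and 5 lower called loci with the largest change and separate days, the 5 most abundant per day, and the 3 with the most exons, longest span, most transcripts and highest minimum. LXLOC_008622 and the other loci named for their introns or overlaps were chosen after their values were seen. Alternatives were other pseudocounts, filters, scalings, models and left-out libraries. The structural groups were added after seeing the data. Exact positions of introns were derived as the gaps between exons.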

Additional observations from a re-analysis of the deposited data

Results flagged for a closer look

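Circular RNA signals, which the comparisons above do not use, were listed inside 4 of the loci, and all were 0 in the 3 day 7 libraries. Inside LXLOC_030806 a signal of 77 was listed in replicate 3 of day 22, with 20 in replicate 2 of day 22, 20 in replicate 2 of day 37 and 19 in replicate 3 of day 37. Its circle spans 5668 bases, and the locus has introns of 5677 bases. Inside LXLOC_027497 a signal of 30 was listed in replicate 2 of day 37 and of 28 in replicate 3, for a circle of 5718 bases beside an intron of 5725 bases. Inside LXLOC_000020, a mitochondrial locus, a signal of 62 was listed in replicate 1 of day 22 alone. Inside LXLOC_045324 a signal of 20 was listed in replicate 2 of day 22 alone. The signal has no unit, and no test was made.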

How the results depend on the processing

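For day 22 against day 7, the number of higher loci was 46 with a filter at 5 FPKM, 80 with scaling by the median of ratios, 86 with the trimmed mean and 49 with quantile normalization, and lower loci numbered 86, 86 and 78 with these 3 scalings and 16 with scaling on abundant mRNA genes. For day 37 against day 7, higher loci numbered 42 with the filter at 5 FPKM, 99 with median-of-ratios scaling and 56 with quantile normalization, and lower loci 90, 90 and 89 with the 3 scalings on the lncRNA table and 25 with mRNA genes. For day 37 against day 22, the 1 higher locus became 5 with a pseudocount of 0.1 FPKM and 0 with mRNA genes or where every transcript had to have 2 or more exons, and the 17 lower loci became 3 with mRNA genes. The filter at 5 FPKM left 86 of the loci and 4691 features, of which 79.7% were higher on day 22 and 79.5% on day 37 against day 7 (53.5% and 48.8% of the loci). With the pseudocount of 0.1 FPKM 1.36% of all features were higher on day 37 against day 22. Fewer loci were tested with the filter at 5 FPKM. LXLOC_002631, the 1 higher locus, has a single-exon transcript, so it is left out where every transcript needs 2 or more exons. The cause of the other shifts was not tested.

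With 1 library left out at a time, 143 to 167 loci were higher and 25 to 30 lower on day 22 against day 7, 1 to 2 and 12 to 22 on day 37 against day 22, and 168 to 170 and 43 to 54 on day 37 against day 7. The difference in loci at 1 FPKM or more was 112.5 to 137.0, -2.7 to 21.8 and 132.5 to 137.0, and that of the level beside single-exon loci 0.30 to 0.355, -0.190 to -0.130 and 0.141 to 0.201. For the calls with 1 library left out, shares over all features were not taken. Higher on day 22 against day 7 were 60.9% of all features with 9 libraries, and 49.4% without both later libraries numbered 3. The ranges of calls are thus not read as stability of the loci. The detection difference of day 37 against day 22 was 0.0 at a limit of 0.5 FPKM and -6.3 with scaling by the median of ratios. It was -0.3 with the trimmed mean, -19.3 with quantile normalization and -10.7 with mRNA genes. That of day 37 against day 7 was 6.0 with the median of ratios, -11.3 with quantile normalization and 149.0 with mRNA genes, beside 134.3. That of day 22 against day 7 was 12.3 with the median of ratios, 19.3 with the trimmed mean and 8.0 with quantile normalization. With mRNA genes it was 159.7, beside 123.7 without scaling. The level beside single-exon loci reversed with the mean in place of the median, to -0.504 on day 22 and -0.760 on day 37 against day 7, and with quantile normalization, to -0.200 and -0.356.

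With the replicate number as a block, calls were 156 higher and 29 lower, 1 and 18, and 170 and 48. Shares over all features were not taken for this fit. Equal numbers correlated at 0.0641, 0.0593 and -0.0116 between day 22 and day 7, at 0.5153, 0.0926 and 0.5476 between day 37 and day 22, and at 0.03, -0.0313 and -0.0332 between day 37 and day 7, and replicate 2 of day 37 correlated best with replicate 1 of day 22 (0.1561), so the numbers are not shown to pair the libraries. For the 27 named loci, 796 of 817 values under alternatives kept their direction and call, 21 lost the call and 0 reversed. Many of these loci were picked for large called changes in these same data, so the total is no sign of stability. With the scaling on abundant mRNA genes alone, 9 of 43 calls were lost. The intron limit of the long-intron group was also set at 1000 or 5000 bases in place of 3000, a choice made after seeing the data. Higher on day 22 against day 7 were then 135 of 169 or 108 of 129 tested loci, beside 128 of 154. Lower were 6 or 2, beside 3. Among all features 60.9% were higher and 1.69% lower, and the filter favours higher calls in this group.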
